A study of Mus musculus with 12 samples.

Results

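E proteins and their Id inhibitors were examined as 6 genes: Tcf3, Tcf4 and Tcf12, which encode the E proteins, and Id1, Id2 and Id3, which encode the inhibitors. A region of accessible chromatin was counted with a gene when it overlapped the gene's protein-coding RefSeq body (GRCm38), or, if it overlapped no such body, when that gene was the nearest within 100 kb. This gave 173 of the 188262 regions of the series, 102 of them by overlap and 71 by distance, and neither link shows that the region controls the gene. The E protein genes held 125 regions (12 at Tcf3, 61 at Tcf4 and 52 at Tcf12) and the Id genes 48 (8 at Id1, 26 at Id2 and 14 at Id3). All 173 passed the filter on low counts.

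Open chromatin was mapped with ATAC-seq (cutting and tagging of accessible DNA by a transposase) in long-term haematopoietic stem cells (LT-HSC) and multipotent progenitors (MPP) of male mice, 3 libraries per population and genotype. Wild-type (WT) mice carried a floxed Phf6 allele without Cre (Phf6f/Y Rosa26+/+). Knockout (KO) mice carried the deleted allele and the tamoxifen-activated Cre (Phf6-/Y Rosa26+/Cre-ERT2), so loss of Phf6, a nuclear PHD finger protein, cannot be told apart from the presence of Cre-ERT2. All 12 samples, those of WT and of MPP included, are listed at 8 weeks after tamoxifen. LT-HSC nuclei, 20000 per sample, came from separate mice. The sources used here do not give how the MPP were obtained, the animals' ages or where Cre acted. If the MPP libraries are not separate animals, their p-values measure technical spread only.

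E proteins are basic helix-loop-helix transcription factors that bind E-box DNA (CANNTG) as dimers, with one another or with tissue-specific partners such as Tal1. Id proteins have the helix-loop-helix but no basic region, so their dimers with E proteins cannot bind DNA. In blood cells E proteins are known for opening the lymphoid programme, and Id proteins for holding them back in stem cells, myeloid cells and innate lymphocytes.

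Across the series, total counts in regions ran from 22665988 to 48547234 per library, and replicates correlated at r from 0.971 to 0.982 on log2 counts scaled to library size (CPM, the usual depth scaling). All CPM here are scaled with TMM factors. Of 10 regions assigned to Phf6, none was called lower in KO, and a gene-body region was called higher in KO MPP. The 6 at its body held at least 16 counts in every KO library. The labels do not give the deleted part, so these regions do not check the deletion. LT-HSC markers matched the labels, with 170 of 251 regions lower and 18 higher in WT MPP than in WT LT-HSC. So did MPP markers, with 69 of 118 higher and 28 lower. Of all regions 34.6% were higher and 35.2% lower. The share of counts at gene ends (within 1 kb of either end of a gene) was 39.17% to 39.62% in KO and 37.83% to 38.86% in WT LT-HSC, and 40.97% to 41.44% in KO and 39.16% to 41.02% in WT MPP.

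The 250 bases before a RefSeq start that lay under a called or a leading region are shown here 5′ to 3′ from RefSeq (GRCm38.p6), with E-boxes in capitals and any bases inside the longest gene body left out at a first start. Of 3 Tcf12 starts in the table, the first and the internal one are given because the region over the internal one was called for genotype and that over the first was not; the other, at 72111201, lay under no region. Shown too are the starts of Id2 and Id3, because each holds its gene's strongest region at a gene end.
Tcf12 first start, chr9:72111894-72112069, minus strand: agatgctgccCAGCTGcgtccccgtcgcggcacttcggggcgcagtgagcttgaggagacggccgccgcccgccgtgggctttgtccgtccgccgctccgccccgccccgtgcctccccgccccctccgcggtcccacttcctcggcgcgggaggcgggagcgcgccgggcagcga
Tcf12 internal start, chr9:71896097-71896346, minus strand: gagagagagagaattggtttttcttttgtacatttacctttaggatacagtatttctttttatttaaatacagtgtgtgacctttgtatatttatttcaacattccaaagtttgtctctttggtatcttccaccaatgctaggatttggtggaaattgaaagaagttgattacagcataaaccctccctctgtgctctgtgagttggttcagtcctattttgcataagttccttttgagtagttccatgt
Id2 start, chr12:25096093-25096342, minus strand: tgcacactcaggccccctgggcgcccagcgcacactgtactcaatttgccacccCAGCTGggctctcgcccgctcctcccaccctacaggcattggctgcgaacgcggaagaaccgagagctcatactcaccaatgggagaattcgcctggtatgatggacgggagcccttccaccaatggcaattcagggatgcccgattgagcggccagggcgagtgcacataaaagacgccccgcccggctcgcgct
Id3 start, chr4:136143572-136143821, plus strand: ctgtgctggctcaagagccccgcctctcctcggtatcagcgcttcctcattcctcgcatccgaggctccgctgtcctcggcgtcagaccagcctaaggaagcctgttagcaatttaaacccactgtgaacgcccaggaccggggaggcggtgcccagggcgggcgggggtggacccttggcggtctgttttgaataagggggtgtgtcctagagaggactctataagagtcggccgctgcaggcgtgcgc

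The first Tcf12 start and the Id2 start each held 1 E-box with the core CAGCTG, and the windows at the Id3 start and the internal Tcf12 start held none. In the full 250 bases the first Tcf12 start had a GC content of 76.8% and 38 CpG, and the internal start had 34.8% and 0 CpG. A Tcf3 start in the table, at 80433635, had 1 E-box of another core in its 250 bases, of which 47 lay under the strongest Tcf3 region. Among the 250-base windows of 32851 RefSeq starts, 66.2% held CANNTG, 13% held CAGCTG and 17.2% held CACCTG or its reverse complement (CANNTG includes both, and both it and CAGCTG read the same on either strand). The windows describe letters, not binding.

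Summed over its regions, each gene was accessible in all 4 groups. Per kb of region covered, in WT LT-HSC, Id2 was highest at 19.2 ± 0.361 CPM per kb (SD, n = 3), next to Id1 at 18.9 ± 0.997, and these did not differ beyond their spread. Tcf3 at 12.2 ± 0.605 and Id3 at 12 ± 0.686 also lay within each other's spread, above Tcf4 at 6.78 ± 0.0322 and Tcf12 at 5.30 ± 0.179. In WT MPP the order began with Id1 at 22.1 ± 0.404 and Id2 at 20.2 ± 1.0, and then ran through Id3 at 13.5 ± 0.459 and Tcf3 at 12.8 ± 0.618 to Tcf4 at 7.14 ± 0.109 and Tcf12 at 5.40 ± 0.0900. KO groups had Id1 at 20.3 and 23.5, Id2 at 18.2 and 18.2, Tcf3 at 14.5 and 15.7, Id3 at 12.5 and 13.2, Tcf4 at 7.40 and 7.81, and Tcf12 at 5.86 and 5.82 CPM per kb in LT-HSC and MPP.

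The single regions covered a wide range, from 0.320 to 56.4 CPM on average over the 12 libraries. Their median was 1.63, against 1.83 for all regions, and 62 of them were under 1 CPM. Tcf4 and Tcf12 are long genes, at 345 and 268 kb, and 50 and 38 of their regions lay in the gene body. The Id genes are short, at 1.16 to 2.29 kb, and 6, 25 and 12 of the regions of Id1, Id2 and Id3 were intergenic. The Id2 regions lie in a wide stretch without protein-coding genes, with Kidins220 30.6 kb below the gene and Rnf144a 1.21e+03 kb above it.

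Per kb of the region itself, the strongest gene-end regions of Id2 and Tcf3 led in every group. In WT LT-HSC these were Id2 at 124 ± 2.01, Tcf3 at 88 ± 5.66, Tcf4 at 71.0 ± 2.04, Id3 at 47.1 ± 4.23, Tcf12 at 34.8 ± 4.40 and Id1 at 34.4 ± 2.02 CPM per kb. In KO LT-HSC Tcf3 reached 123 ± 3.03, level with Id2 at 124 ± 3.64, and in KO MPP it stood above Id2, at 146 ± 3.16 against 118 ± 2.67.

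**Figure D1:**
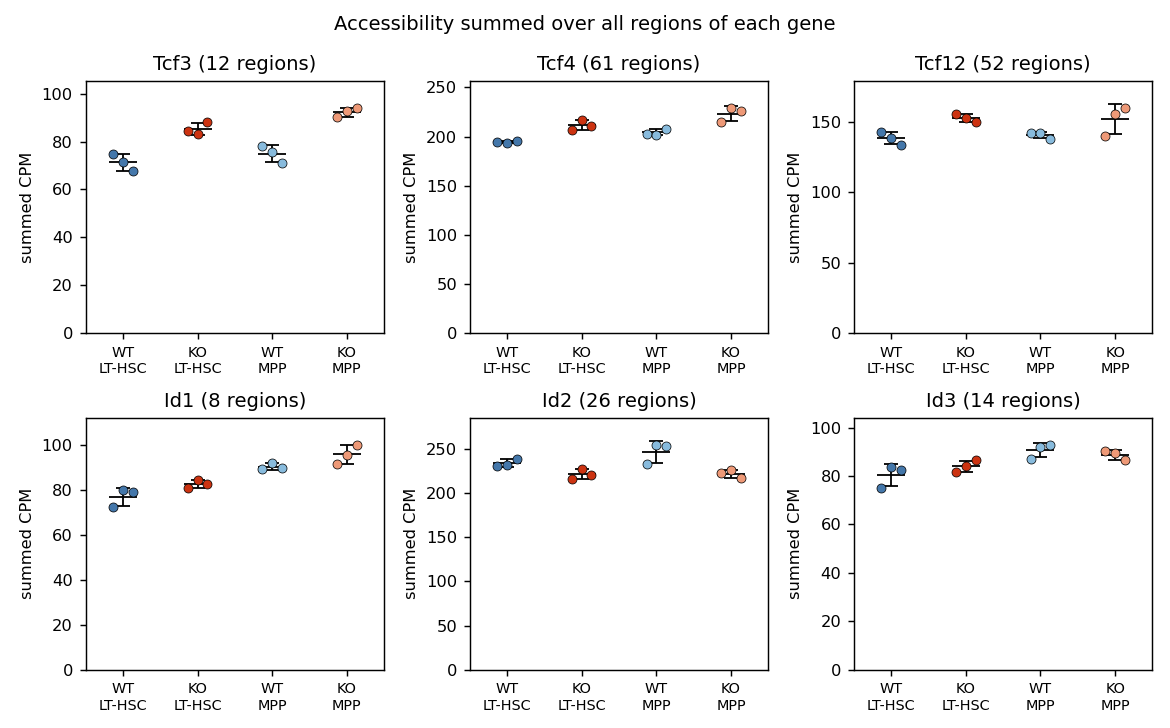
Accessibility summed over all regions of each gene (y axis, summed CPM from 0) in the 4 groups (x axis), with a point per library, the mean as a bar and the SD as whiskers. KO points lie above all WT points of the same population at Tcf3 and Tcf4, and below them at Id2.

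The first comparison asked how accessibility differs between KO and WT LT-HSC. Of the 125 regions of the E protein genes 13 rose (10.4% called), 0 fell and 112 were not called. The test was edgeR's quasi-likelihood test with Benjamini-Hochberg adjustment over all 186373 regions tested (adjusted p under 0.05, as throughout). An unadjusted p under 0.05 was found at 29 of 125. The share of all regions at that unadjusted level is not given here, so this count is a description. Of the 48 Id regions 2 rose and 1 fell. For comparison, called regions were 4.74% of all regions tested, 3.27% higher and 1.47% lower, against 9.25% (16 of 173) here. Leaving out any library of either group gave 6 to 11 calls, and adding the gene-end share of counts as a covariate gave 5, so single calls at the threshold depend on them. The share stood apart between KO and WT LT-HSC and between populations in each genotype. A fit with it cannot separate it from these contrasts, and a call lost with it need not mean a smaller change. Of the 3 regions named below and lost with it in LT-HSC, log2 fold changes went from 0.77 to 1.02 (Tcf12), 0.45 to 0.41 (Id3) and -0.63 to -0.59 (Id2).

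In MPP the same comparison gave 10 E protein regions that rose and 4 that fell, and 2 Id regions that rose and 5 that fell. These 21 of 173 regions were 12.1%, against 8.71% of all regions, 5.12% higher and 3.59% lower. Leaving out a library gave 6 to 20 calls and the gene-end share gave 8. All 5 Id regions that fell in KO MPP, and the 1 that fell in KO LT-HSC, belonged to Id2. Both populations called 8 regions (3 at Tcf4 and 1 at each other gene), 50.0% of the calls in LT-HSC and 38.1% of those in MPP, and 0 went in opposite directions. This overlap was not taken over all regions, so it is a description.

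Median log2 fold changes of KO over WT were 0.14 in LT-HSC and 0.17 in MPP for E protein regions, 0.02 and -0.04 for Id regions, and -0.001 and -0.009 for all regions tested. The interaction, which tests whether the genotype difference itself differed between LT-HSC and MPP, called 0 of the 173 regions in the main edgeR fit. Of the 173, 15 had an unadjusted p under 0.05, a description without the share of all regions at that level. DESeq2 called 1, as did edgeR with the replicate number as a block. The main fit called 0.00805% of all regions.

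**Figure D2:**
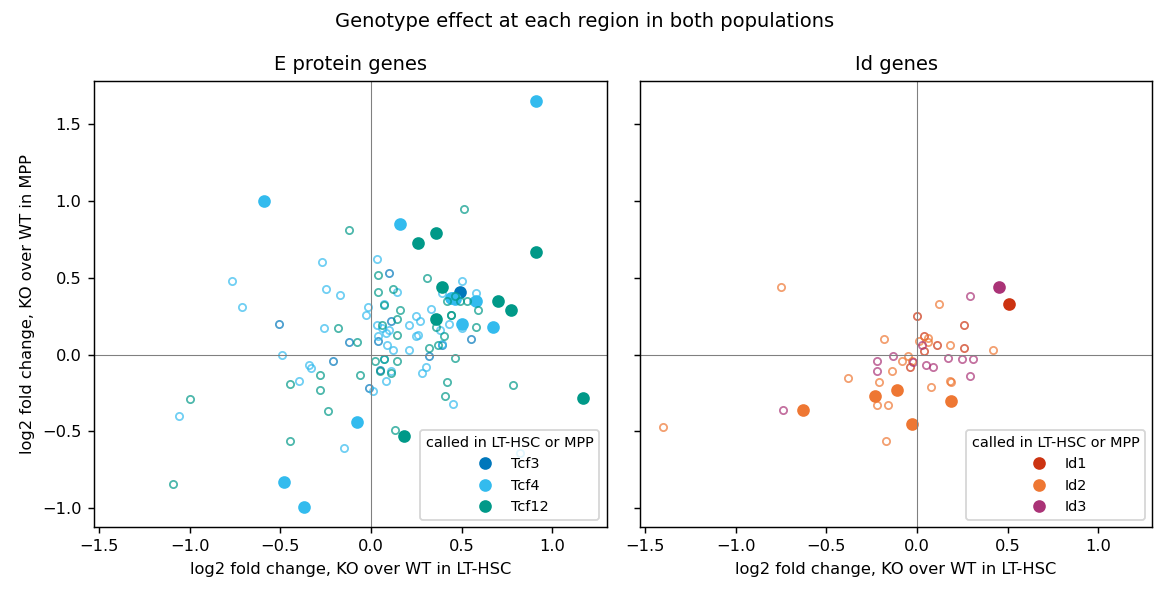
Log2 fold change of KO over WT in LT-HSC (x axis) against that in MPP (y axis), a point per region, for the 125 E protein regions and the 48 Id regions. Filled points were called in at least 1 population; of those called in both, 0 lie in opposite quadrants.

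Counts summed per gene were tested in the same way, and the E protein genes were not tested against the Id genes. Called genes were 17.0% of the 18829 tested in LT-HSC (8.09% higher and 8.93% lower) and 29.3% in MPP (15.4% higher and 13.9% lower). Summed Tcf3 accessibility was 75.0, 71.4 and 67.9 CPM in the WT and 84.6, 83.0 and 88.1 CPM in the KO libraries of LT-HSC. In MPP it was 78.1, 75.7 and 71.0 CPM in WT against 90.3, 92.7 and 94.0 in KO. Every KO value lay above every WT value of its population, with log2 fold changes of 0.25 ± 0.04 (SE, adjusted p = 0.000939) and 0.30 ± 0.04 (adjusted p = 7.12e-05), which passed under every alternative run.

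Tcf4 summed to 194, 193 and 195 CPM in WT against 207, 217 and 211 in KO LT-HSC, and to 203, 202 and 208 CPM in WT against 215, 229 and 226 in KO MPP. The ranges did not overlap in either population, and the log2 fold change was 0.13 ± 0.03 in both (adjusted p = 0.0117 and 0.00461); without KO LT-HSC replicate 2 the first was not called (adjusted p = 0.0662). Tcf12 summed to 143, 139 and 134 CPM in WT against 156, 153 and 150 in KO LT-HSC, without overlap. Its log2 fold change of 0.15 ± 0.04 (adjusted p = 0.0191) was lost with the gene-end share (adjusted p = 0.106) and without WT replicate 3, KO replicate 1 or KO replicate 2 (adjusted p = 0.0734, 0.0778 and 0.0547). In MPP the Tcf12 ranges overlapped, from 138 to 142 CPM in WT and from 140 to 160 CPM in KO, and the call (log2 fold change 0.11 ± 0.04, adjusted p = 0.0459) was lost under 13 of 16 alternatives, among them DESeq2 (adjusted p = 0.0803).

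Id2 went the other way. Its regions summed to 231, 232 and 239 CPM in WT against 216, 228 and 221 in KO LT-HSC, a difference that was not called (log2 fold change -0.08 ± 0.04, adjusted p = 0.144). In MPP they summed to 233, 255 and 253 CPM in WT against 223, 226 and 217 in KO, without overlap, and fell by 0.16 ± 0.04 on the log2 scale (adjusted p = 0.00364). Once the gene-end share entered the fit this was not called (adjusted p = 0.136). Id1 had fold changes, on the log2 scale, of 0.10 ± 0.04 in LT-HSC and 0.09 ± 0.04 in MPP (adjusted p = 0.101 and 0.105), and Id3 of 0.06 ± 0.04 and -0.03 ± 0.04 (adjusted p = 0.332 and 0.584), and neither gene was called.

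Some marker sums also stood apart between genotypes, and a sum over a list was not tested. Of single marker genes in KO LT-HSC, 0 of 8 LT-HSC, 0 of 6 B cell and 0 of 5 T cell genes were called. Of 6 myeloid genes 0 rose and 2 fell. In KO MPP 4 of 5 erythroid and megakaryocyte genes rose (Gp1ba, Itga2b, Klf1 and Pf4), and so did Procr of the LT-HSC genes. Of 6 MPP genes Dach1 rose there, and Flt3 and Ccr9 fell (log2 fold changes -0.11 and -0.16, adjusted p = 0.0234 and 0.0318). Blk, Cd3e, Csf1r and Ly6g, of the B cell, T cell and myeloid genes, fell in KO MPP. Of all genes 29.3% were called in MPP and 17.0% in LT-HSC. LT-HSC markers summed to 1330 to 1340 CPM in KO and 1270 to 1310 CPM in WT LT-HSC, where 9 of 251 regions rose and 0 fell (3.59%). Summed likewise, B cell markers lay at 209 to 215 CPM in KO and 219 to 222 CPM in WT LT-HSC, and at 202 to 210 and 216 to 226 CPM in MPP. Myeloid markers lay at 82.1 to 84.1 CPM in KO and 88.3 to 96.0 CPM in WT LT-HSC, overlapping in MPP, and T cell markers overlapped in both populations. In LT-HSC 1 of 91 B cell, 1 of 29 myeloid and 1 of 29 T cell regions rose, and 0, 1 and 2 fell. These are 1.10%, 6.90% and 10.3%, against 4.74% of all regions. In MPP 1, 1 and 0 rose and 4, 0 and 0 fell, which are 5.49%, 3.45% and 0% against 8.71%. Erythroid and megakaryocyte markers lay at 230 to 234 CPM in KO and 199 to 214 CPM in WT MPP, where 7 of 24 regions rose and 0 fell (29.2%). No marker gene with a region was at 0, and the part of these cells, or of the gene-end share, in the genotype differences was not tested beyond the covariate fit. In LT-HSC that fit cannot separate the share from genotype. ATAC-seq of a sorted pool cannot tell more open cells from more opening per cell.

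Tcf3 encodes E12 and E47, the E proteins that B cell development depends on. Its strongest region, chr10:80433839-80434322, spans the upstream end of the gene body. It held 44.7, 43.6 and 39.5 CPM in WT against 59.3, 58.4 and 61.3 in KO LT-HSC, and 56.8, 54.2 and 47.6 CPM in WT against 70.6, 69.1 and 72.1 in KO MPP. The 3 KO libraries stood above the 3 WT libraries in each population. The log2 fold change of KO over WT was 0.49 ± 0.06 for LT-HSC (adjusted p = 4.50e-05) and 0.41 ± 0.06 for MPP (adjusted p = 0.000145), called under every alternative. The other 11 Tcf3 regions were not called in either population, with log2 fold changes from -0.51 to 0.55 in LT-HSC.

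Tcf12 encodes the E protein HEB, which is used in T cell development, and a start inside the gene gives a shorter form. The region over that internal start, chr9:71895951-71896793, held 7.31, 7.19 and 7.50 CPM in WT against 11.6, 11.7 and 12.5 in KO LT-HSC. In MPP it held 7.92, 8.30 and 8.76 CPM in WT against 9.16, 10.4 and 12.2 in KO. The groups did not overlap in either population, and the rise was 0.70 ± 0.10 in LT-HSC (adjusted p = 0.000130, kept under every alternative) and 0.35 ± 0.10 in MPP (adjusted p = 0.0207). In MPP it was not called with the gene-end share (adjusted p = 0.0579) or without WT replicate 1 or 2 or KO replicate 2 or 3 (adjusted p from 0.0566 to 0.200).

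The first Tcf12 start, whose GC-rich sequence is shown above, lies upstream under chr9:72111684-72112132. It held 16, 17.4 and 13.5 CPM in WT against 19.2, 17.5 and 14.5 in KO LT-HSC, with overlap, and 25.0, 26.0 and 20.0 CPM in WT against 28.3, 26.7 and 28.7 in KO MPP. Its log2 fold changes of 0.14 ± 0.10 (adjusted p = 0.467) and 0.23 ± 0.09 (adjusted p = 0.120) were not called. Whether the 2 starts differ in their response was not tested.

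Most other Tcf12 calls lay within the gene body. In KO MPP chr9:71974485-71975004 rose from 1.0, 0.855 and 1.18 CPM in WT to 1.68, 1.83 and 1.64 CPM, without overlap (log2 fold change 0.79 ± 0.18, adjusted p = 0.00570, kept under every alternative). The region chr9:72029503-72030995 rose there from 1.32 ± 0.209 to 2.19 ± 0.395 CPM (n = 3 each, adjusted p by edgeR 0.0172), and was lost under 5 alternatives, among them the gene-end share (adjusted p = 0.154) and leaving out WT replicate 3, KO replicate 2 or KO replicate 3 (0.0620, 0.0512 and 0.137). The region chr9:72039537-72040052 rose in KO LT-HSC from 1.89 ± 0.280 to 3.20 ± 0.450 CPM (adjusted p by edgeR 0.0160), and was also lost under 5, with the gene-end share (0.0583) and without WT replicate 3, KO replicate 1 or KO replicate 2 (0.0613, 0.104 and 0.0548) among them. One fell: chr9:72097074-72097516 held 5.54, 6.67 and 5.14 CPM in WT against 3.94, 3.95 and 4.20 in KO MPP (log2 fold change -0.53 ± 0.12, adjusted p = 0.00686; adjusted p = 0.0738 without WT MPP replicate 2). The remaining calls, taken up after their values were seen, were rises at 71936711, 71951258 and 71982054 in LT-HSC (log2 fold changes 1.17, 0.36 and 0.91) and, 58.0 kb outside the gene, at 72169855 in MPP (0.44).

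Tcf4 encodes E2-2, the E protein of plasmacytoid dendritic cells. Its rise with the lowest p in LT-HSC was within the gene body at chr18:69575307-69575798. This region held 5.91, 5.76 and 6.83 CPM in WT against 8.64, 9.41 and 9.80 in KO LT-HSC, and 13.3, 13.3 and 15.0 CPM in WT against 15.0, 18.2 and 19.2 in KO MPP. The LT-HSC groups were apart, and in MPP the lowest KO library stood level with the highest WT library to 3 digits. Log2 fold changes were 0.58 ± 0.11 (adjusted p = 0.00159, kept under every alternative) and 0.35 ± 0.09 (adjusted p = 0.0163; from 0.0643 to 0.125 without WT replicate 1 or 2 or KO replicate 2 or 3).

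A second Tcf4 region, chr18:69365345-69365834, rose in KO LT-HSC from 5.99, 6.69 and 6.37 to 8.23, 9.87 and 8.95 CPM (a change of 0.50 ± 0.11 on the log2 scale, adjusted p = 0.00531; adjusted p = 0.0530 without KO replicate 2). In MPP its log2 fold change was 0.20 ± 0.10 (adjusted p = 0.217). A pair of low regions rose in KO MPP. The first, chr18:69543813-69544245, held 1.10, 0.917 and 1.39 CPM in WT against 1.87, 2.35 and 1.73 in KO (log2 fold change 0.85 ± 0.20, adjusted p = 0.00793; 0.0598 without WT replicate 2 and 0.0870 without KO replicate 2). The second, chr18:69566813-69567264, held 0.902, 0.896 and 0.744 CPM in WT against 1.83, 1.38 and 1.97 in KO (log2 fold change 1.0 ± 0.23, adjusted p = 0.00665), and was not called without KO replicate 3 (adjusted p = 0.0663) or with the gene-end share (adjusted p = 0.142).

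Of the other Tcf4 rises, taken up after their values were seen, those at 69415361 and 69563404 were called in both populations, with log2 fold changes of 0.45 and 0.91 in LT-HSC and 0.37 and 1.65 in MPP. Those at 69546618, 69644604 and 69690068 were called in LT-HSC, at 0.67, 0.44 and 0.46.

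Against these, 3 Tcf4 regions fell in KO MPP. The one at chr18:69337929-69338385, 5.04 kb from the gene, went from 6.47 ± 0.736 to 4.78 ± 0.385 CPM (adjusted p = 0.0254), and chr18:69439329-69439802 from 1.80 ± 0.532 to 1.04 ± 0.0936 CPM (adjusted p = 0.0212). The third, at 69406791 and named after its values were seen, fell by 0.99 on the log2 scale. The calls of the first 2 were each lost under 5 alternatives, which was not run for the third. The Tcf4 gene-end region, chr18:69344193-69344596, at 28.7 ± 0.825 CPM in WT LT-HSC, was not called for genotype in either population (log2 fold changes 0.04 and 0.12). The called genotype differences at Tcf4 thus lay in the gene body and its flanks.

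Id1 and Id3 each had 1 region that rose in both populations (1 of 8 and 1 of 14, 12.5% and 7.14%). Id2 had only decreases, at 1 of 26 regions in LT-HSC and 5 in MPP (3.85% and 19.2%). Of all regions, 4.74% were called in LT-HSC and 8.71% in MPP. Id1, a target of BMP signalling, rose at chr2:152734960-152735417, 0.834 kb outside the gene. This region held 12.2, 11.6 and 16.1 CPM in WT against 18.9, 18.3 and 19.4 in KO LT-HSC, and 11.9, 10.9 and 13.3 CPM in WT against 15.6, 14.5 and 15.1 in KO MPP. KO and WT did not overlap in either population. The log2 fold changes were 0.51 ± 0.10 (adjusted p = 0.00237, kept under every alternative) and 0.33 ± 0.10 (adjusted p = 0.0320, lost without any 1 of WT replicates 1 and 2 and the 3 KO replicates, adjusted p from 0.0720 to 0.148). The neighbouring region at the Id1 gene end itself, chr2:152735999-152736450, held 15.6 ± 0.913 CPM in WT against 16 ± 0.554 in KO LT-HSC and was not called.

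At Id3 the region chr4:136144569-136145006, inside the gene, rose in both populations. It held 8.09, 9.02 and 8.94 CPM in WT against 10.1, 12.1 and 13.7 in KO LT-HSC, and 7.27, 7.50 and 6.49 CPM in WT against 9.90, 10.4 and 8.76 in KO MPP. Neither pair of groups overlapped, with log2 fold changes of 0.45 ± 0.11 (adjusted p = 0.0112) and 0.44 ± 0.11 (adjusted p = 0.00884). With the gene-end share neither was called (adjusted p = 0.135 and 0.106), nor was the first without WT replicate 1, KO replicate 2 or KO replicate 3 (0.0609, 0.0543 and 0.0880) or the second without KO replicate 2 (0.0727). The Id3 start region, chr4:136143463-136143995, held 25.1 ± 2.25 CPM in WT against 26.7 ± 0.116 in KO LT-HSC, which overlapped, and was not called (adjusted p = 0.531).

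Id2, the inhibitor that innate lymphoid and NK cells need, had no called genotype difference at its start. The start region, chr12:25096015-25096417, held 49.9 ± 0.812 CPM in WT against 50.1 ± 1.47 in KO LT-HSC, and 44.6 ± 0.703 and 47.5 ± 1.07 CPM in MPP (adjusted p = 0.964 and 0.342). The decreases lay upstream. At 46.1 kb, chr12:25142230-25142680 held 4.39, 4.16 and 4.89 CPM in WT against 2.81, 3.22 and 2.63 in KO LT-HSC, and 7.22, 7.27 and 7.21 CPM in WT against 5.81, 5.92 and 5.20 in KO MPP. All KO libraries were below all WT libraries of the same population. The region fell by 0.63 ± 0.13 in LT-HSC on the log2 scale (adjusted p = 0.00395; 0.0597 with the gene-end share) and by 0.36 ± 0.11 in MPP (adjusted p = 0.0334), where leaving out any 1 library ended the call (adjusted p from 0.0547 to 0.172).

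At 93.1 kb from Id2, chr12:25189151-25189763 held 16.7, 18.7 and 17.0 CPM in WT against 19.9, 21.3 and 18.5 in KO LT-HSC, with overlap. In MPP it held 36.5, 41.4 and 41.3 CPM in WT against 31.9, 32.8 and 32.0 in KO, all KO below all WT. The log2 fold change was 0.19 ± 0.08 for LT-HSC (adjusted p = 0.143) and -0.30 ± 0.07 for MPP (adjusted p = 0.00608; 0.0968 with the gene-end share). The interaction was -0.49 ± 0.10 and did not pass (adjusted p = 0.127, from 0.00364 to 0.420 over the alternatives and 0.0203 by DESeq2), the lowest adjusted p among the 173 regions. The strongest Id2 region away from the start, chr12:25119305-25119735 at 23.2 kb, fell in KO MPP from 28.7, 30.3 and 33.9 to 28.2, 27.4 and 23.2 CPM (adjusted p = 0.0411), and was lost under 8 of 16 alternatives, without WT replicate 2 or 3 or KO replicate 2 or 3 among them (adjusted p from 0.0656 to 0.287). The other 2 decreases in KO MPP, named after their values were seen, were at 45.2 and 61.1 kb, with log2 fold changes of -0.45 and -0.27.

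**Figure D3:**
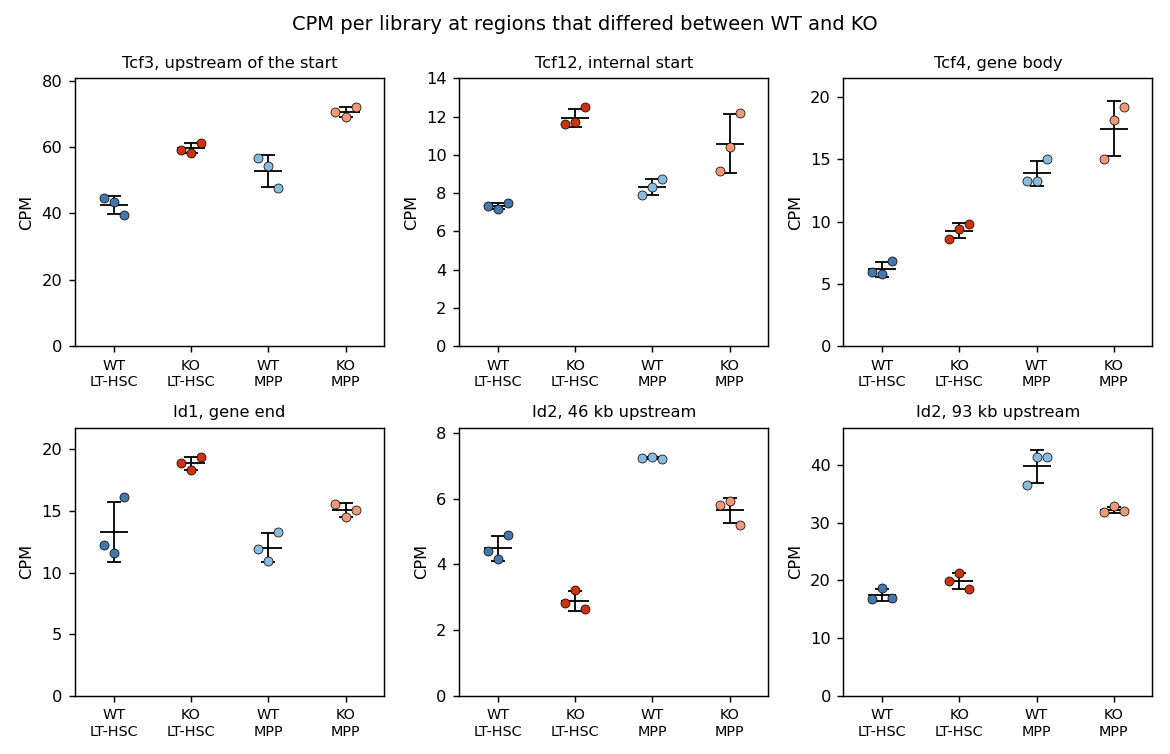
CPM per library (y axis from 0) in the 4 groups (x axis) at 6 regions, with the mean as a bar and the SD as whiskers. KO libraries lie above WT libraries of the same population at the Tcf3, Tcf12, Tcf4 and Id1 regions, nearly level in MPP for the lowest Tcf4 library, and below them at Id2 46 kb upstream in both populations and 93 kb upstream in MPP alone.

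The other comparison was between populations. In WT, 68 of the 173 regions rose and 53 fell from LT-HSC to MPP, which is 69.9%, against 69.8% of all regions tested (34.6% higher and 35.2% lower). In KO 61 rose and 47 fell, 62.4% against 67.7% (33.3% higher and 34.4% lower). These shares are near the background, and the WT and KO calls had 100 regions in common, 82.6% of the WT and 92.6% of the KO calls, with 0 in opposite directions. At least 2-fold differences were found at 41 regions that were higher and 24 that were lower in WT MPP. Neither the overlap of calls nor the share at 2-fold was taken over all regions, so both are descriptions.

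Summed per gene, Id1 passed in both genotypes and Id3 in WT. Called genes were 73.3% of all in WT (36.7% higher and 36.6% lower) and 72.6% in KO (38.0% higher and 34.5% lower). Id1 was at 72.3, 79.7 and 78.8 CPM in WT LT-HSC and at 89.0, 92.1 and 89.6 CPM in WT MPP, without overlap. It rose by 0.23 ± 0.04 in WT (adjusted p = 3.87e-05) and 0.22 ± 0.04 in KO (adjusted p = 8.46e-05). Id3 rose from 75.2, 83.7 and 82.6 to 87.2, 92.1 and 92.9 CPM in WT, again without overlap (log2 fold change 0.17 ± 0.04, adjusted p = 0.000788), and its change in KO was 0.08 ± 0.04 (adjusted p = 0.0929). Id2 had 0.08 ± 0.04 in WT (adjusted p = 0.0569) and 0.00 ± 0.04 in KO (adjusted p = 0.962). The Id2 sum in WT was called under 5 alternatives, namely DESeq2 (adjusted p = 0.0412), the replicate block (0.0249), the gene-end share (0.0150), and without WT LT-HSC replicate 3 (0.0406) or WT MPP replicate 1 (0.00595).

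Tcf12 gave 0.03 ± 0.04 and -0.01 ± 0.04 in WT and KO (adjusted p = 0.540 and 0.867). Tcf4 passed at 0.07 ± 0.03 and 0.08 ± 0.03 (adjusted p = 0.0417 and 0.0306), each lost under 10 of 16 alternatives. Tcf3 had 0.07 ± 0.04 in WT (adjusted p = 0.132, and 0.0423 and 0.0200 without WT LT-HSC replicate 1 or WT MPP replicate 3) and 0.12 ± 0.04 in KO (adjusted p = 0.0164, lost under 7 of 16). The interaction was not called for any of the 6 genes (adjusted p from 0.603 to 0.982), against 0.0212% of all genes.

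Near-level sums went with large changes in both directions within a gene. At Id2, regions within 46 kb of the gene, or below it, and those farther upstream moved apart. Of the 12 nearer regions 0 rose and 6 fell in WT, and 0 rose and 5 fell in KO. Of the 14 farther ones 12 rose and 1 fell in WT, and 10 rose and 0 fell in KO. The 46 kb division was drawn after the values were seen and is a description. All 14 farther regions overlapped the noncoding gene Gm36287, and so did the nearer region at 45.2 kb, which fell in WT.

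The largest Id2 decrease was at chr12:25110280-25110716, 14.2 kb upstream, from 3.59, 3.03 and 3.68 CPM in WT LT-HSC to 0.426, 0.709 and 0.575 CPM in WT MPP (log2 fold change -2.56 ± 0.19, adjusted p = 2.24e-13). The strong region at 23.2 kb went from 46.6, 51.5 and 51.4 to 28.7, 30.3 and 33.9 CPM (a change of -0.69 ± 0.07 on the log2 scale, adjusted p = 4.40e-10). Both were less accessible in MPP, without overlap. Farther out, the 93.1 kb region rose from 17.5 ± 1.06 to 39.7 ± 2.81 CPM in WT (log2 fold change 1.19 ± 0.07) and from 19.9 ± 1.41 to 32.2 ± 0.494 CPM in KO (0.69 ± 0.07). The region at 68.6 kb, chr12:25164706-25165177, rose from 5.13, 5.59 and 5.62 to 14.9, 15.9 and 13.1 CPM in WT (log2 fold change 1.43 ± 0.10) and by 1.07 ± 0.10 in KO. At 45.2 and 46.1 kb, 2 regions 142 bases apart moved oppositely, by -0.94 and 0.69 in WT.

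**Figure D4:**
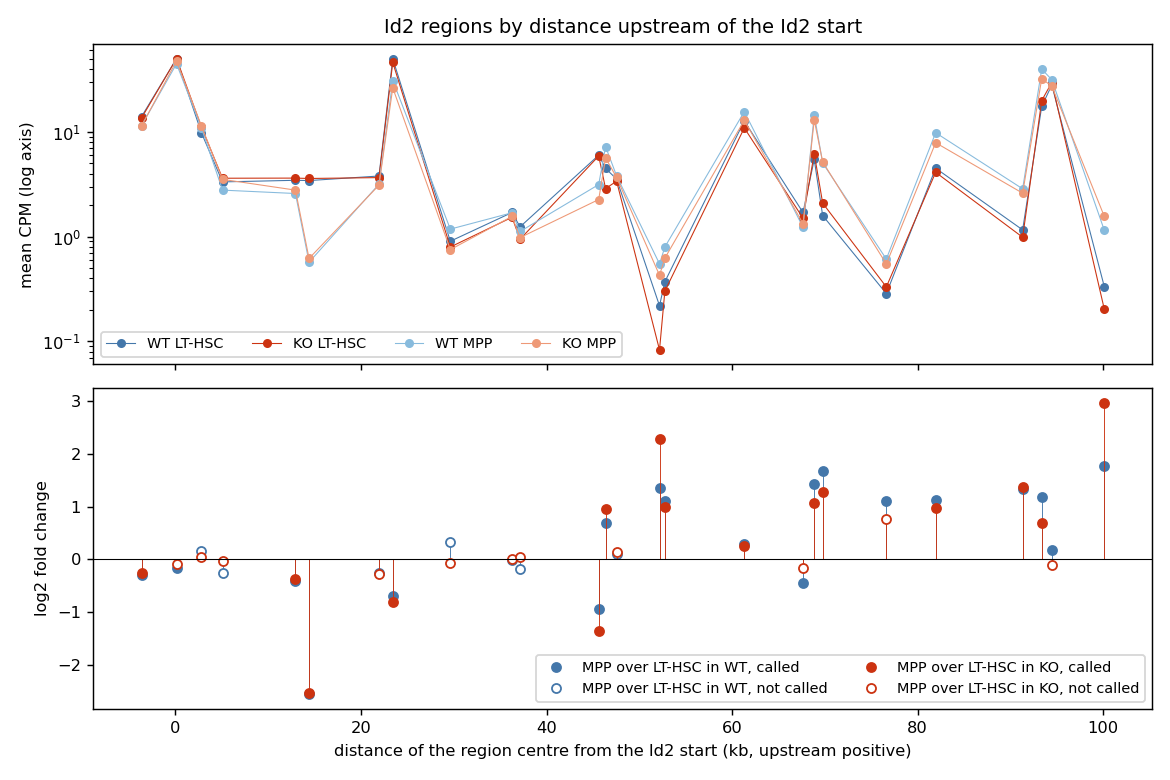
Mean CPM of each Id2 region in the 4 groups (upper panel, log axis) and log2 fold change of MPP over LT-HSC in WT and KO (lower panel), against the distance of the region's centre from the Id2 start in kb, upstream positive. Regions that fell lie mostly within 46 kb and regions that rose lie beyond.

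At Id1 the gene-end region was not called between populations (log2 fold change -0.11 ± 0.08 in WT, adjusted p = 0.197). The strongest Id1 region, chr2:152741572-152742074 at 4.16 kb from the gene, rose from 20.4, 26.7 and 22.5 to 33.5, 35.4 and 32.2 CPM in WT (log2 fold change 0.54 ± 0.08, adjusted p = 3.10e-07) and by 0.52 ± 0.08 in KO. A weak region at 8.82 kb on the other side rose from 0.400 ± 0.131 to 1.58 ± 0.321 CPM in WT. At Id3 the start region rose from 22.6, 25.7 and 27.0 to 30.3, 34.8 and 32.9 CPM in WT (log2 fold change 0.38 ± 0.07, adjusted p = 2.66e-05) and by 0.21 ± 0.07 in KO. Its neighbour inside the gene fell by 0.29 ± 0.11 in WT. At 26.4 and 27.1 kb from Id3, 2 regions 269 bases apart moved by 1.31 and -1.25.

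The Tcf3 start region rose by 0.31 ± 0.06 from WT LT-HSC to WT MPP (adjusted p = 5.42e-05) and by 0.24 ± 0.06 in KO (adjusted p = 0.00104), and neither call held with the gene-end share (adjusted p = 0.274 and 0.654). At 1432 bases from it, chr10:80435755-80436182 fell from 7.43, 6.69 and 6.28 to 1.35, 1.5 and 1.66 CPM in WT and from 6.30 ± 0.608 to 1.59 ± 0.0453 CPM in KO. Its log2 fold changes were -2.18 ± 0.14 and -1.99 ± 0.14 (adjusted p = 2.54e-15 and 8.08e-14), the strongest decrease at Tcf3 in both genotypes.

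At Tcf12, 15 regions rose and 22 fell in WT (71.2% called, against 69.8% of all regions). The first start rose by 0.60 ± 0.10 in WT and 0.70 ± 0.10 in KO, whereas the internal start had 0.18 ± 0.10 and -0.16 ± 0.10 and was not called. Within the body, chr9:72088897-72089351 rose from 3.5, 4.07 and 3.82 to 9.75, 10.8 and 9.34 CPM in WT (log2 fold change 1.40 ± 0.11), and chr9:71975998-71976524 fell from 8.63, 9.27 and 7.96 to 3.66, 3.69 and 4.16 CPM (-1.18 ± 0.11). The region that fell in KO MPP, at 72097074, was one that rose in WT MPP over LT-HSC, by 1.85 ± 0.14, and by 1.14 ± 0.15 in KO. The region that rose in KO MPP at 71974485 was one that fell, by 1.72 ± 0.16 in WT and 1.29 ± 0.15 in KO. The interaction passed for neither. Both comparisons use the WT MPP libraries, so noise in these libraries pushes the genotype and WT population changes in opposite directions.

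At Tcf4, 28 regions rose and 15 fell in WT, and 24 rose and 10 fell in KO. These are 70.5% and 55.7%, against 69.8% and 67.7% of all regions. The gene-end region rose slightly, by 0.18 ± 0.06 in WT and 0.26 ± 0.06 in KO. The gene-body region at 69575307, which rose in KO, also rose in MPP, by 1.16 ± 0.10 in WT and 0.93 ± 0.10 in KO. Of the named Tcf4 regions, 69566813 rose most, from 0.138, 0.106 and 0.178 to 1.83, 1.38 and 1.97 CPM in KO (a log2 difference of 3.60 ± 0.35, adjusted p = 1.01e-10), on 3 to 5 counts per KO LT-HSC library. Conversely 69543813 fell from 4.45, 3.74 and 5.76 to 1.10, 0.917 and 1.39 CPM in WT (log2 fold change -2.06 ± 0.18). Neighbouring regions could go opposite ways, as 2 at Tcf12 did 328 bases apart (72088167 and 72088897, -1.53 and 1.40).

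**Figure D5:**
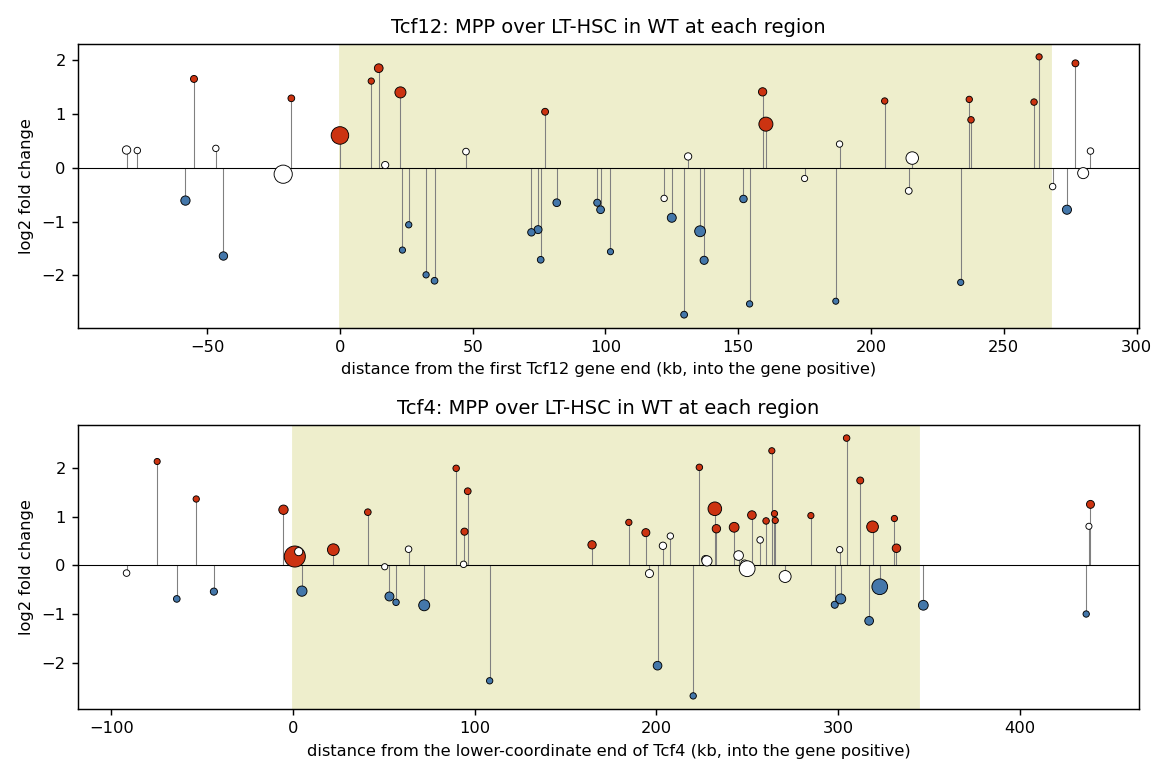
Log2 fold change of MPP over LT-HSC in WT (y axis) at each region of Tcf12 and Tcf4 against its distance in kb along the gene (x axis, gene body shaded), with point area growing with mean CPM. Red points rose, blue points fell and white points were not called, and regions of both directions are mixed along each gene.

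Other genes of the pathway were read from fixed lists in the same test. Of 101 regions of bHLH partners 1 rose and 0 fell in KO LT-HSC, and 3 rose and 2 fell in KO MPP, which are 0.990% and 4.95% against 4.74% and 8.71% of all regions. Of the 3 rises, 2 were at Tal1, the stem cell bHLH factor that dimerizes with E proteins, whose gene-end region at chr4:115056538-115057188 went from 27.8 ± 2.58 to 34.6 ± 1.28 CPM (a change of 0.31 ± 0.07 on the log2 scale, adjusted p = 0.00676). Both decreases were at Msc, a bHLH repressor, one at its gene end with a log2 fold change of -0.50 ± 0.13 (adjusted p = 0.0162). Between WT populations 35 rose and 42 fell, 76.2% against 69.8% of all regions. The region at chr13:48316830-48317269, assigned to Id4, the fourth Id gene, fell there by 5.13 ± 0.26.

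Cofactor regions (213) gave 7 that rose and 3 that fell in KO LT-HSC, and 12 and 2 in KO MPP. These are 4.69% and 6.57%, against 4.74% and 8.71% of all regions, so the list was not above the background. Usp1, a deubiquitinase known to stabilize Id proteins, rose in LT-HSC at its gene end, chr4:98923055-98923581, to 107 ± 2.33 CPM (a change of 0.40 ± 0.05 on the log2 scale, adjusted p = 6.38e-05). The coactivator gene Ep300 rose at its gene end in LT-HSC by 0.43 ± 0.10 (adjusted p = 0.00821), and Lmo2, an adaptor of Tal1 and E protein complexes, rose in MPP by 0.36 ± 0.09 (adjusted p = 0.00797). Decreases were found at separate weak intergenic regions assigned to Lmo4, another LIM-only gene. In MPP chr3:144298159-144298562 fell from 1.19 ± 0.371 to 0.351 ± 0.127 CPM, by 1.78 ± 0.34 on the log2 scale (adjusted p = 0.00131). In LT-HSC chr3:144257976-144258607 fell from 2.50 ± 0.754 to 1.48 ± 0.344 CPM, by 0.78 ± 0.21 (adjusted p = 0.0281). The Lmo4 sum was not called in LT-HSC (log2 fold change -0.08, adjusted p = 0.137) or in MPP (0.04, adjusted p = 0.486). Nor was the Ep300 sum in LT-HSC (0.14, adjusted p = 0.0711) or the Lmo2 sum in MPP (0.06, adjusted p = 0.226). The Usp1 sum was called higher in KO LT-HSC (0.31, adjusted p = 0.000105). The corepressor gene Cbfa2t3 fell at a region by 0.40 ± 0.09 in MPP (adjusted p = 0.00572), and the acetyltransferase gene Kat2b by 0.37 ± 0.10 in LT-HSC (adjusted p = 0.0230). The sums of these genes were not called there (-0.01 and -0.07, adjusted p = 0.917 and 0.167). Between WT LT-HSC and MPP 53 cofactor regions rose and 95 fell, 69.5% against 69.8% of all regions.

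Regions of BMP receptors and Smads (201), the pathway that induces Id genes, gave 7 that rose and 3 that fell in KO LT-HSC, and 18 and 2 in KO MPP. These are 4.98% and 9.95%, near the 4.74% and 8.71% of all regions. An intragenic region of Smad6, which encodes an inhibitory Smad, rose in LT-HSC by 0.66 ± 0.12 (adjusted p = 0.00118), and a region of the receptor gene Bmpr2 rose in MPP by 0.73 ± 0.14 (adjusted p = 0.00112). The Smad6 sum was not called in LT-HSC (0.02, adjusted p = 0.644), and the Bmpr2 sum was in MPP (0.21, adjusted p = 0.00159). Regions of Smad1 and Smad4 fell in LT-HSC (log2 fold changes -0.65 and -0.72), and regions of Smad4 and Bmpr1b in MPP (-0.64 and -0.80). From LT-HSC to MPP in WT, 40 rose and 98 fell, with a median log2 fold change of -0.32, and 38 and 100 in KO. Each is 68.7%, against 69.8% and 67.7% of all regions.

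Of the lymphoid target regions (195), 88 rose and 56 fell from LT-HSC to MPP in WT and 86 and 56 in KO. These are 73.8% and 72.8%, against 69.8% and 67.7% of all regions. The median log2 fold change was 0.35 in WT. With genotype 5 rose and 1 fell in LT-HSC and 8 and 4 in MPP. These are 3.08% and 6.15%, below the 4.74% and 8.71% of all regions. The same Dntt region, at the gene for terminal transferase, rose with genotype in LT-HSC (log2 fold change 0.58 ± 0.10, adjusted p = 0.000632) and in MPP (0.33 ± 0.08, adjusted p = 0.00656), and by 1.84 ± 0.09 from WT LT-HSC to WT MPP. A region assigned to Notch1 fell with genotype in both, by 0.81 ± 0.22 and 0.65 ± 0.16 (adjusted p = 0.0291 and 0.00817). Neither the Dntt sum (0.08 in LT-HSC and 0.11 in MPP) nor the Notch1 sum (0.01 and 0.00) was called for genotype.

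Other target regions (293) had 11 that rose and 2 that fell in KO LT-HSC and 26 and 3 in KO MPP. These are 4.44% and 9.90%, near the 4.74% and 8.71% of all regions. From WT LT-HSC to WT MPP 138 rose and 73 fell, 72.0% against 69.8% of all regions. Among them an intergenic region of Bcl11a, a lymphoid and erythroid regulator, rose in LT-HSC by 0.68 ± 0.11 (adjusted p = 0.000558). In MPP regions of Gfi1b, an erythroid and megakaryocyte repressor, and of Cdk6, a cell cycle kinase, rose by 0.49 ± 0.08 and 0.65 ± 0.12 (adjusted p = 0.000198 and 0.000693). Their sums were also called higher in KO MPP (0.22 and 0.16, adjusted p = 0.000764 and 0.00745).

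By likeness of the strongest gene-end region across the 12 libraries, over 11614 genes, Tcf3 was nearest to Ngdn (Pearson r = 0.994 on log2 CPM), Nfkbib and Sirt2, and Tcf12 to Rrp15 (0.991), Ddx20 and Cep76. Tcf4 was nearest to Ing2 (0.979), Agrn and Cpt2, and Id3 to Ywhaq (0.976), Lactb2 and Rxylt1. Id2 was nearest to Zfp120 (0.953), Parvb and Srp14, and Id1 to Gm35364 (0.946), Gba2 and Rgp1. These correlations share the libraries, their depth and their 4 group means, and are descriptions.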

How the data were processed

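The authors deposited 1 table of unnormalized read counts, with a row per accessible region and a column for each of the 12 libraries. Of tools, the submitters' processing notes list MACS2 2.1.1, Bowtie2, cutadapt, DESeq2 1.22.1 and featureCounts, and as build GRCm38; the sources used here do not give filters or how the region set was made. The fit used edgeR 4.0.16 (R 4.3.3) (filterByExpr, TMM factors, 1 mean per group over 4 groups of 3, glmQLFit and 2-sided glmQLFTest), as were counts summed per gene, with Benjamini-Hochberg adjustment over all regions or genes and a threshold of 0.05. SE is the log2 fold change divided by the root of F; 2 was the prior count of log2 CPM. The main region fit was tested on simulated counts with a fixed spread, for KO against WT in LT-HSC only. The other contrasts, the gene sums and the alternatives were not tested in this way.

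Named regions, by rule, were per gene the strongest gene-end region and start region, the strongest elsewhere, up to 2 called regions per direction and comparison with the lowest p, and the lowest interaction p; per pathway list up to 2 per direction, of which some are given. Members, lists and rules were chosen with earlier results of these data known. Lists held bHLH partners, cofactors, BMP and Smad genes, lymphoid and other targets, and markers of LT-HSC, MPP, T, B, myeloid and of erythroid and megakaryocyte cells. Alternatives used DESeq2 1.42.0 and limma 3.58.1 (loess offset), among others. The RefSeq gene table gave no strand for Tcf4 and Id1. Counting precision follows from depth: the lowest count at any of the 173 regions was 1, and 62 regions averaged under 1 CPM. Intervals do not cover PCR duplicates.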

Additional observations from a re-analysis of the deposited data

How the results depend on the processing

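Of 13 called gene sums 6 were kept under every alternative. Of 16 KO calls in LT-HSC, 4 were kept under every alternative, all higher: the Tcf3 start region and 1 region each at Tcf12 (71895951), Tcf4 (69575307) and Id1 (152734960). Of 21 in MPP, 2 were kept, both higher, at the Tcf3 start and Tcf12 (71974485). From LT-HSC to MPP 67 of 121 calls were kept in WT and 64 of 108 in KO. Low counts limit the weakest regions, since 62 of 173 averaged under 1 CPM.

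The number of called regions in KO LT-HSC, 16, became 6 at an adjusted p under 0.01 and 5 with the gene-end share, and in KO MPP 21 became 7 and 8 under these and 12 by DESeq2. With the gene-end share, which stood apart between the populations compared, 121 became 70 between WT populations and 108 became 64 between KO populations. Leaving out 1 library gave 6 to 11 calls in KO LT-HSC (over 1.5 times fewer without WT replicate 2 or 3 or any KO replicate) and 6 to 20 in KO MPP (without WT replicate 1 or 2 or KO replicate 2 or 3). Among the 6 genes, 3 called in KO LT-HSC became 1 at an adjusted p under 0.01 and 1 to 3 when a library was left out (1 without KO replicate 2), and 4 in KO MPP became 2 with the gene-end share. Between KO populations 3 became 1 at an adjusted p under 0.01, under total-count scaling and with the loess offset, and 1 to 3 when a library was left out (1 without KO LT-HSC replicate 1 or KO MPP replicate 3).

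With the replicate number as a block, the interaction called 1 region, at Id2 93.1 kb upstream (adjusted p = 0.00364), as DESeq2 did (1 region, adjusted p = 0.0203), and calls were gained at the first Tcf12 start in KO MPP (adjusted p = 0.0374), for the Id2 sum between WT populations (0.0249) and for the Id3 sum between KO populations (0.0458). Deviations of same-numbered libraries correlated at -0.037 to 0.033 between genotypes, within the -0.069 to 0.066 of other pairs. Between populations they correlated at 0.054 to 0.114, weakly but above every other pair (-0.078 to -0.006). Same-numbered LT-HSC and MPP libraries may thus be linked, and the labels do not say whether they share an animal. The main fit took no pairs for that reason, and the calls gained with the block depend on this choice.

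Changes of sign were confined to uncalled log2 fold changes near 0. Tcf12 sums between populations went to -0.03 in WT (loess offset) and to 0.01 and 0.04 in KO (without KO LT-HSC replicate 1 or KO MPP replicate 1). Id2 sums in KO went to -0.01 (DESeq2, RLE factors, without KO MPP replicate 2), -0.02 (total-count scaling, compared groups alone, without KO LT-HSC replicate 1), -0.04 (loess offset) and -0.00 (without KO LT-HSC replicate 3 or KO MPP replicate 1), from -0.02 to 0.02 when a library was left out. In KO LT-HSC the Id1 gene-end region went to -0.02 (total-count scaling) and -0.03 (loess offset, gene-end share), the Tcf4 one to -0.02, -0.05 and -0.02 under the same 3 settings, the Tcf12 first start to -0.07 (gene-end share), and the Id2 start to -0.05 (total-count scaling), -0.09 (loess offset), -0.03 (at least 1 CPM in 3 libraries), -0.01 (compared groups alone, without KO replicate 1) and -0.00 (without WT replicate 2), from -0.01 to 0.03 when a library was left out. For these the cause was not tested. Without KO MPP replicate 1 the Id1 sum was called in KO MPP (adjusted p = 0.0478). No scaling moved the median of all regions by over 0.1.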
